A study of Homo sapiens with 12 samples.

Results

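The genes described here encode 44 enzymes of central carbon metabolism, and the data are the sites in them that were listed as bound by an antibody against 1-methylguanosine (m1G). The set holds 19 genes of glycolysis and its regulation, 6 of the pentose phosphate pathway and 19 of pyruvate entry and the citrate cycle. All 44 were found in the RefSeq gene table, out of 20050 protein-coding genes. A site was counted for a gene when it lay wholly inside the gene's GRCh38 span, introns included. By this rule the set held 48 of the 9585 peaks of a list named MetDiff and 51 of the 3705 summits of a MACS2 list.

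The study used PANC-1, a long-established cell line of pancreatic ductal adenocarcinoma from a human tumour, either as controls (labelled WT control) or depleted by siRNA for 4 days of TRMT5, the methyltransferase that makes m1G beside the anticodon of tRNAs. Fragmented polyadenylated RNA was either kept as input or immunoprecipitated (IP) with the anti-m1G antibody, which gave 4 groups of 3 libraries in experiment 2. The labels do not say whether the 3 replicates of a group came from separate cultures. The question was which mRNAs may carry m1G.

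Both lists are of the whole series and hold no value for a single library, so no value below has a replicate error, no difference between knockdown and control was tested, and the depth is unknown. No list has a header. The last MetDiff value was read as the fold of IP over input from its place in the layout; if it is a ratio of another contrast, each fold below changes its meaning. The MACS2 value was read as −log10 of a q-value, a measure of significance that is not a size of enrichment. Expression was not analysed here, so a difference between genes in their share of peaks and a difference in their mRNA level cannot be told apart. In these bulk RNA samples, fewer cells carrying an mRNA and less of it per cell cannot be told apart either. Of 6 ductal epithelial markers, 4 had a MetDiff peak (KRT8, KRT18, KRT19 and SOX9) and KRT7 and EPCAM had neither a peak nor a summit. Of 4 mesenchymal markers, 2 had a MetDiff peak, VIM (highest fold 7.10, with 5 summits up to −log10 q of 109) and CDH2 (12.6), while 0 of 4 acinar, 0 of 3 islet, 0 of 3 immune and 0 of 2 endothelial markers had either.

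Glycolysis splits glucose into pyruvate in the cytosol, and lactate dehydrogenase turns pyruvate into lactate. The pentose phosphate pathway branches off at glucose 6-phosphate and makes NADPH and ribose phosphate. In mitochondria the pyruvate dehydrogenase complex makes acetyl-CoA, which the citrate cycle oxidises. Pancreatic ductal cancers are known for high glucose uptake and lactate output.

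Sequence was at hand only around gene starts, so the bases under most peaks are not shown. The RefSeq table of start windows (GRCh38.p14) held 43 of the 44 genes, all but OGDH. A window there runs from 250 bases before a start to 50 after it, and 3 places where a member's site reached into one are printed from 100 bases before the start to 30 after it, 5′ to 3′. For IDH1, the cytosolic isocitrate dehydrogenase, the capitals mark the part of a MetDiff peak (chr2:208255042-208255171, minus strand). For TPI1 (chr12:6867431-6867560, plus strand) and ALDOA (chr16:30065660-30065789, plus strand), encoding triose phosphate isomerase and aldolase A, they mark the summit and 15 bases on each side.
IDH1: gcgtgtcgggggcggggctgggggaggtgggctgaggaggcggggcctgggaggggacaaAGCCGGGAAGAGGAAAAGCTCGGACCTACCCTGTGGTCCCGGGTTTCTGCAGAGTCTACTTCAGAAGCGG
TPI1: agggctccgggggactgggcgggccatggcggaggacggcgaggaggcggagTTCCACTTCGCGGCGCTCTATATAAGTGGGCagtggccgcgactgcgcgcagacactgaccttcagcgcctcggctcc
ALDOA: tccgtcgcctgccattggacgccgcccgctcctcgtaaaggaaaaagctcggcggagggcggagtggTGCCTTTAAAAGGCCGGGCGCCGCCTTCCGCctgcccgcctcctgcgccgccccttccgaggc

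The IDH1 peak (208255011 to 208255111, fold 3.67, FDR 7.59e-04) reached 40 bases past the RefSeq start, so it was not wholly inside the span and IDH1 was not counted. It was the sole peak that touched a member's span without lying in it. The TPI1 summit lay 33 bases before the gene start on which the printed window is built and 78 bases inside the gene's span, which begins at an earlier start. Likewise, the ALDOA summit lay 18 bases before the start of its printed window and 1463 bases inside the ALDOA span. The capitals of TPI1 hold TATATAA and those of ALDOA hold TTTAAAA, letters that were chosen after the sequences were seen. On either strand, 2.57% and 8.18% of the 35116 whole windows hold them. The windows are longer than the capitals, so these are not the shares for stretches as short as the capitals. Members' sites reached into 8 start windows of 5 genes, those printed and further ones of TPI1, PFKM and IDH3B. Guanine made up 28.0% (IDH3B) to 39.7% (TPI1) of these 8 windows, and 7 of them lay above the median of 28.7% over all windows. These shares are of whole windows, of which the sites cover only a part, so they do not describe the bases at a site. The 8 are not independent, since the windows of PFKM share bases with each other.

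Peaks were found in 26 of the 44 genes, and glycolysis held most of them. A MetDiff peak lay in 24 members, against a background of 21.3% of all protein-coding genes (54.5% of members), and a summit lay in 21, against 9.46% (47.7%). Both lists held 19 members (43.2%), against a background of 8.07%. These 19 were 79.2% of the members with a MetDiff peak and 90.5% of those with a summit; over all protein-coding genes the shares were 37.9% and 85.3%. The same libraries may underlie both lists.

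The pathways' shares lay further apart for summits than for MetDiff peaks. In glycolysis 13 of 19 genes carried a summit (68.4%) and 12 a MetDiff peak (63.2%). Of the pentose phosphate genes 3 of 6 had a peak and 1 a summit. Among the 19 genes of pyruvate entry and the citrate cycle, 9 had a peak (47.4%) and 7 a summit (36.8%). Glycolysis thus held 40 of the 51 summits and 30 of the 48 peaks. The 18 members with neither were HK2, ALDOC, PGAM1, PFKFB3 and PFKFB4 in glycolysis, PGD, TALDO1 and RPE in the pentose phosphate pathway, and PDHA1, PDHB, DLD, IDH1, IDH3A, IDH3G, SUCLG1, SUCLG2, FH and MDH1. The median span was 26180 bases for members with a MetDiff peak and 20540 for those without, and 26150 and 23520 over all protein-coding genes. The pathways differed in this: the members with a peak had the longer median span in the pentose phosphate pathway (31310 against 19620) and the citrate cycle (28630 against 20500) and the shorter one in glycolysis (23770 against 45450).

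**Figure D1:**
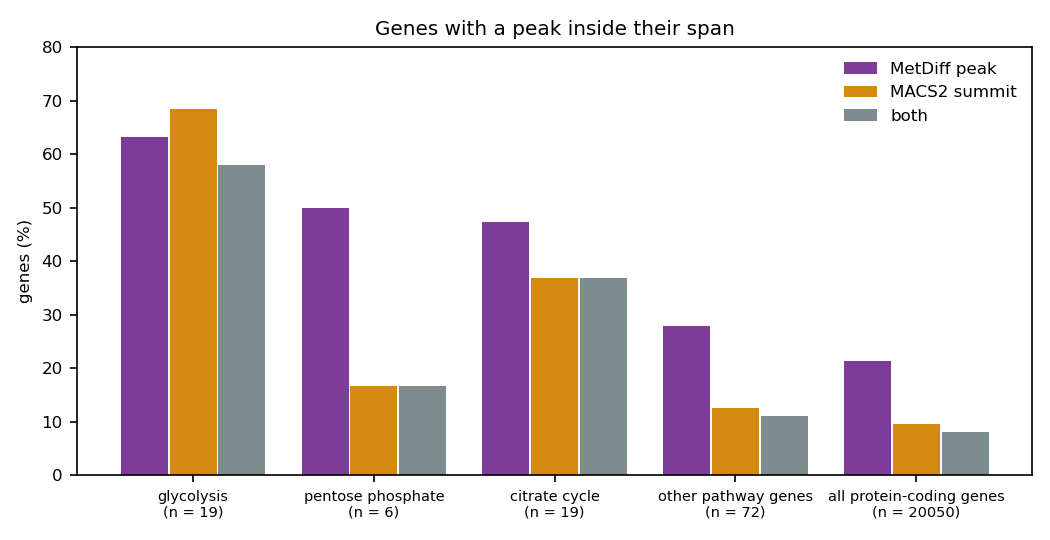
Share of genes (%) with a MetDiff peak, a MACS2 summit or both wholly inside the gene span, for the 3 pathways, 72 other genes of these pathways and all 20050 protein-coding genes. Glycolysis reaches 68.4% for summits, while of the 6 pentose phosphate genes 16.7% carry a summit and 50.0% a MetDiff peak.

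The members' folds were not high for the list. The median over members of a gene's highest fold was 5.29, against 6.18 over all protein-coding genes with a peak, and 8 of 24 lay above that value (GPI, PFKL, PFKM, TPI1, PKM, CS, OGDH and PC, the last by a peak on the strand opposite to the gene). Summit significance was placed differently: the median of the highest −log10 q was 22.7, against 14.9 over all genes with a summit, and 14 of 21 members lay above that value. Of these 14, 11 were among the 13 glycolytic genes with a summit, 2 among the 7 of the citrate cycle (CS and OGDH), and the other was TKT.

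**Figure D2:**
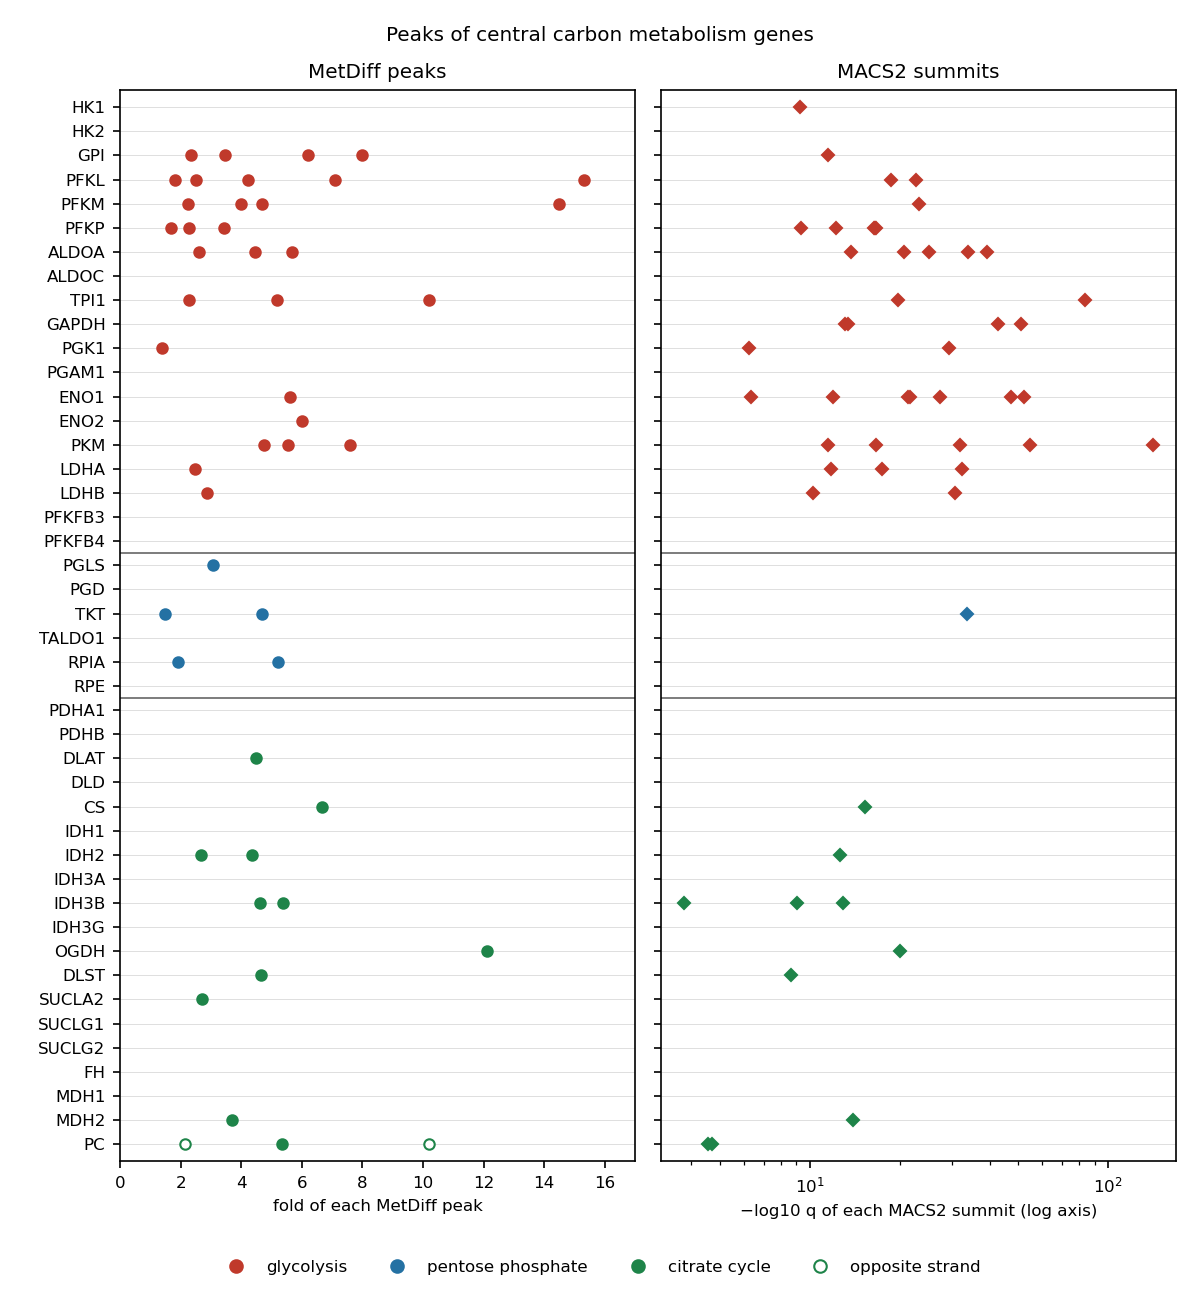
Fold of every MetDiff peak (left, linear axis) and −log10 q of every MACS2 summit (right, log axis) in the 44 genes, in pathway order; open circles are peaks on the strand opposite to the gene. PFKL and PFKM reach folds of 15.3 and 14.5, and PKM has the highest −log10 q, 141.

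Followed along the pathway, 9 of the 10 reactions from glucose to pyruvate had a member in at least 1 list. All 9 did so by a summit and 7 by a MetDiff peak. The reaction with neither was that of phosphoglycerate mutase, for which PGAM1 is the member. This rests on the choice of members, since the muscle mutase PGAM2, outside the set, had a MetDiff peak of fold 21.4 inside its span, counted on either strand. A reaction with 2 or 3 members can be listed through any of them, and hexokinase and aldolase each were through 1 gene, HK1 and ALDOA. By gene, 73.7% of the 19 of glycolysis were in either list, against 22.7% over all protein-coding genes. Hexokinase, which traps glucose in the cell, had no MetDiff peak in HK1 or HK2. HK1 had 1 summit (chromosome 10, 69398628) with −log10 q of 9.26, a value reached by 77.5% of genes with a summit. It lay at 97.5% of the HK1 span, counted from the 5′ end.

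GPI, the isomerase that turns glucose 6-phosphate into fructose 6-phosphate, had 4 MetDiff peaks with folds of 3.45, 2.35, 8.0 and 6.21 from the 5′ to the 3′ side. The peaks of 8.0 (chromosome 19, 34400367 to 34400517) and 6.21 (34400397 to 34400495) covered the same bases under different Ensembl IDs, so they are not separate sites. All 4 lay toward the 3′ end of the span (78.7% to 95.4%). The single GPI summit, with −log10 q of 11.5, lay far from them, at 41.6% of the span and 15790 bases from the nearest exon block. In this gene the lists pointed to different places.

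Phosphofructokinase, the main control point of glycolysis, was the reaction with the most peaks: its 3 genes, for the liver, muscle and platelet subunits, held 12 MetDiff peaks and 8 summits. PFKL had 5 peaks with folds of 4.22, 7.09, 15.3, 2.51 and 1.83 from 5′ to 3′. The highest, at 44321853 to 44323784 on chromosome 21 (FDR 0.00166), was pieced from 4 exon blocks of 23, 71, 88 and 19 bases. A fold of 15.3 or more was found in 6.84% of genes with a peak. PFKM had folds of 4.00, 2.23, 4.67 and 14.5, the last at 48139878 to 48141375 on chromosome 12 (FDR 5.37e-05, reached by 8.39% of genes). The first PFKM peak, near the 5′ end, also overlaps the span of SENP1; the list gives it on the strand of PFKM and under the same Ensembl ID as the other PFKM peaks.

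PFKP stood apart from its paralogs by fold. Its 3 peaks had folds of 1.68, 2.28 and 3.43, the highest of which 83.1% of genes reached, so every PFKP peak lay well below the highest peaks of PFKL and PFKM. Its 5 summits, with −log10 q of 9.31, 12.2, 16.7, 16.5 and 16.5, were more than those of PFKL (22.7 and 18.7) or PFKM (23.3) in number and lower in value. PFKFB3 and PFKFB4, which make the fructose 2,6-bisphosphate that activates phosphofructokinase, had neither.

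ALDOA, the main aldolase of most tissues, had 3 MetDiff peaks with folds of 2.60, 4.46 and 5.66 and 5 summits with −log10 q of 13.7, 25.2, 39.3, 34.0 and 20.6 from 5′ to 3′. The summits of 39.3 and 34.0 lay inside exon blocks. The peak of 2.60 was listed under another Ensembl ID than the other peaks. Its block of 55 bases lay wholly inside the peak of 4.46, so these are not fully separate sites. A protein-coding locus, LOC112694756, overlaps nearly the whole span, so none of these sites belongs to ALDOA alone. ALDOC, an aldolase best known from brain, had neither.

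TPI1, which interconverts the triose phosphates, had folds of 5.18, 10.2 and 2.29 across its short span of chromosome 12. The central peak, at 6868986 to 6869321 (3 blocks, FDR 1.12e-05), held the stronger of the TPI1 summits, with −log10 q of 83.8 at 6869123. That significance was reached by 1.00% of genes with a summit and the fold of 10.2 by 21.6% of genes with a peak. The other summit, 19.7, is the one printed with the start window.

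Of the 5 reactions from glyceraldehyde-3-phosphate to pyruvate, 3 had a member with a MetDiff peak and 4 a member with a summit. Of the 5 before them, these numbers were 4 and 5. The earlier reactions hold more members: of the reactions with more than 1 member, only enolase is among the later 5. These counts are therefore not shares of genes and do not compare the parts of the pathway. GAPDH, the dehydrogenase that makes the NADH of the pathway, had 4 summits with −log10 q of 13.4, 13.2, 42.6 and 50.9 from 5′ to 3′ and no MetDiff peak. It and HK1 were the members found by summit alone, as were 278 of all 1896 protein-coding genes with a summit. PGK1, the first step that yields ATP, had the lowest highest fold of the set, 1.37 (chromosome X, 78124891 to 78124991), which 99.7% of genes reached, beside summits of 6.24 and 29.2. The stronger PGK1 summit lay 74 bases from that peak.

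ENO1, the common enolase, had 7 summits, the most of any member, and 1 MetDiff peak. From 5′ to 3′ the summits had −log10 q of 12, 27.3, 21.3, 47.1, 52.3, 6.35 and 21.7 and spread from 59.4% to 97.8% of the span. The peak (chromosome 1, 8863221 to 8863917, fold 5.61) held the summit of 52.3 between its exon blocks. ENO2, the neuronal enolase, had 1 peak with a similar fold of 6.0 and no summit.

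PKM, the pyruvate kinase that tumours express as the M2 form, had the second highest −log10 q of all 1896 genes with a summit. Its 5 summits had values of 141, 31.9, 16.7, 11.5 and 54.9 from 5′ to 3′. Its 3 peaks had folds of 7.59, 4.74 and 5.54 in the same direction, and the summit of 141 (chromosome 15, 72208931) lay inside the single-exon peak of 7.59 (72208760 to 72208959, 200 bases, FDR 3.63e-05). A fold of 7.59 is common in the list (37.8% of genes reached it), so PKM stood high by significance and not by fold. The weakest of its peaks by FDR, at 0.0209, was that of 4.74.

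The lactate dehydrogenase genes had similar values. LDHA, the form that favours lactate production, had 1 peak of fold 2.48 and summits of 11.8, 32.2 and 17.4. LDHB had 1 peak of fold 2.86 and summits of 10.2 and 30.6. In both, the strongest summit lay in the gap between the exon blocks of the sole peak, and the fold was low for the list (reached by 92.5% and 88.7% of genes).

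**Figure D3:**
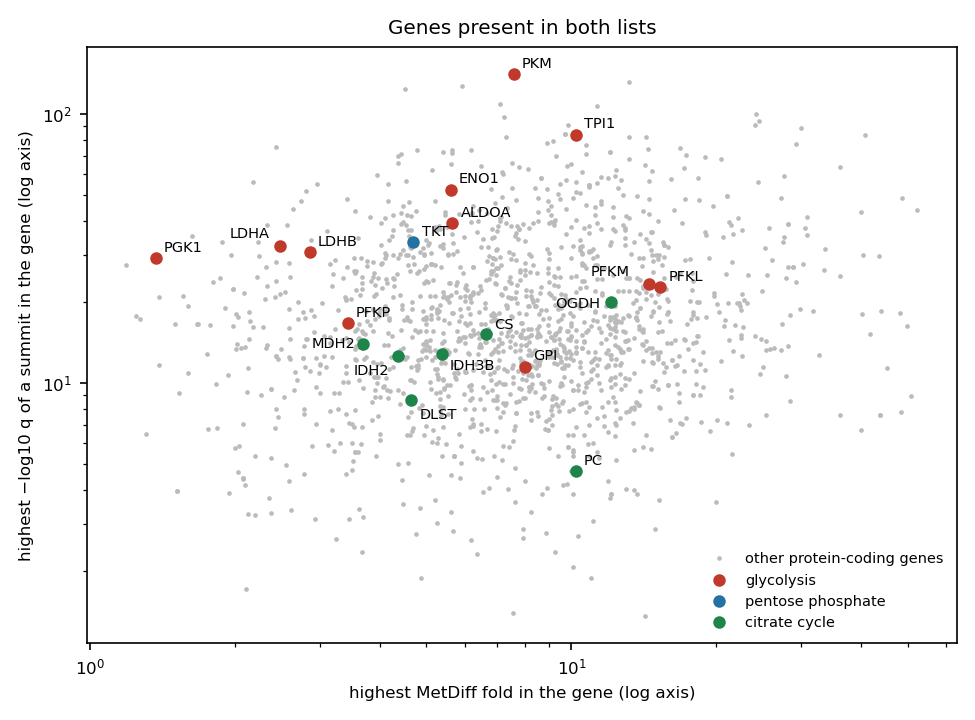
Highest MetDiff fold (x, log axis) against highest −log10 q (y, log axis) of the 1618 protein-coding genes in both lists, with the 19 members named. PKM and TPI1 stand high by −log10 q (141 and 83.8), PFKL, PFKM and OGDH to the right by fold (15.3, 14.5 and 12.1), and the fold shown for PC (10.2) is of a peak on the opposite strand.

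In the pentose phosphate pathway the folds were modest. Of the oxidative branch, PGLS, the lactonase, had 1 peak of fold 3.06 in which blocks of 5 and 196 bases were joined, and PGD, the second NADPH-making dehydrogenase, had none. Transketolase (TKT), which shuttles carbon units back to glycolysis, had peaks of 4.70 and 1.47, and the former (chromosome 3, 53225806 to 53225956) held its summit of 33.5, the only summit of this pathway. RPIA, the ribose phosphate isomerase, had peaks of 1.90 and 5.20, both with an FDR of 3.55e-09. Transaldolase (TALDO1) and RPE had neither.

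Of the 4 pyruvate dehydrogenase subunits, DLAT, the acetyltransferase core, had 1 peak of fold 4.49 (chromosome 11, 112025511 to 112025611), 103 bases from its 5′ end, and 0 of 4 had a summit. In so few genes these counts are near the background of 21.3% and 9.46%. PC, the carboxylase that refills oxaloacetate, had 3 peaks inside its span, of which those with folds of 10.2 and 2.14 lay on the opposite strand inside LRFN4, a gene within the PC span. The peak on the strand of PC had a fold of 5.33 (66849294 to 66849633, FDR 0.00234). The PC summits were weak (4.57 and 4.71), the latter inside LRFN4, so without it PC is among the members in both lists through the summit of 4.57.

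OGDH, the first subunit of the oxoglutarate dehydrogenase complex, had the strongest peak of the citrate cycle. Its fold was 12.1 (chromosome 7, 44673865 to 44674532, FDR 5.62e-04), reached by 14.2% of genes, with a summit of 20.04 between the exon blocks. DLST, the core of the same complex, had a fold of 4.64 and a summit of 8.65, and DLD, the subunit shared with pyruvate dehydrogenase, had neither. Citrate synthase (CS), which opens the cycle, had a fold of 6.65 (chromosome 12, 56283843 to 56285949) and a summit of 15.3.

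The mitochondrial forms IDH2 (folds of 4.36 and 2.67, summit 12.6) and MDH2 (fold 3.70, summit 13.96) were in both lists. The cytosolic forms IDH1 and MDH1 were in neither by this rule. The IDH1 peak of fold 3.67 that reached past the gene start would count with any overlap. Over all protein-coding genes 8.07% were in both lists and 15506 of 20050 in neither, and 2 genes of each form are too few to compare the forms. Of the NAD-dependent isocitrate dehydrogenase, only the IDH3B subunit was listed, with peaks of 5.38 and 4.61 at its 5′ and 3′ ends and summits of 12.9, 3.80 and 9.06; IDH3A and IDH3G had none. Of succinate-CoA ligase, 1 of 3 subunits was listed, SUCLA2 with a fold of 2.71 and no summit. Over all protein-coding genes 22.7% were in either list, so 1 of 3 subunits is near the background. Fumarase (FH) had neither.

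Peaks of the set lay toward the 3′ side of the spans. The midpoints of the 46 peaks on the gene's own strand had a median position of 78.5% of the span from the 5′ end, against 69.5% over 7911 pairs of a protein-coding gene and a peak on its strand (genes whose strand the start windows did not give were left out). In the last 20% of the span lay 22 of 46 (47.8%, against 40.8%), and in the first 20% lay 4 (8.70%, against 21.4%), in PFKM, TPI1, DLAT and IDH3B. Spans hold introns, so these are not positions in the mRNA. The 46 include the overlapping peaks of GPI, both in the last 20%, and of ALDOA, so not all are separate sites. Peaks pieced from more than 1 exon block were 23 of 46 (50.0%), against 34.7% over all, while the median fold of single peaks was 4.47 and 4.45.

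**Figure D4:**
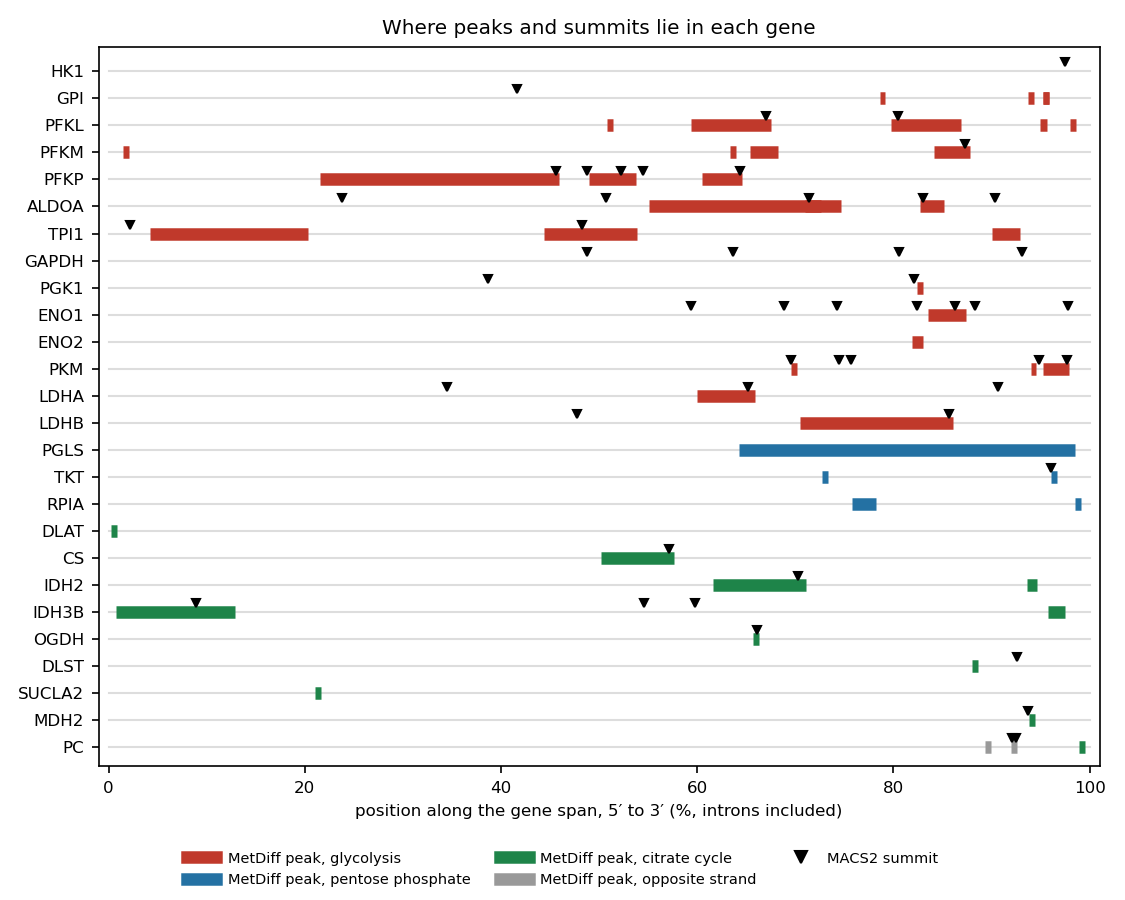
Position of every MetDiff peak (bars, from first to last base) and MACS2 summit (triangles) along the spans of the 26 members with a site, from the 5′ end (0%) to the 3′ end (100%), introns included. Bars crowd right of the middle, with 4 peaks on the gene's strand in the first 20%.

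The median distance of a member's summit from the nearest exon block was 121 bases, against 64 over all protein-coding genes. Of the 46 summits in the 19 members with both kinds of site, 6 lay inside a MetDiff exon block (13.04%, against 21.04% over all protein-coding genes) and 25 within 150 bases of one (54.3%, against 72.7%), which left 21 farther away (45.7%, against 27.3%). Of the summits outside a block but within 150 bases, all 19 lay on its 5′ side by the strand of the peak, 13 of 13 on the plus strand and 6 of 6 on the minus strand. The 13 include a PC summit, 54 bases from a peak on the strand opposite to PC. The same side held 89.1% of 1625 such summits over all protein-coding genes, with 89.0% on the plus and 89.2% on the minus strand, so the members show a pattern of the lists as a whole. Their median distance was 95 bases, against 58 over all.

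Many of these lay in the gap between blocks, where the list places an intron. Only peaks of more than 1 exon block have a gap, which also widens their range. Such peaks were 50.0% of the members' peaks on the gene's strand, against 34.7% over all. The part of this in the gap and range shares below was not tested. A gap held 13 of the 46 (28.3%, against 19.9%), among them the summits of PFKM at 116 bases from the nearest block, of PFKL at 118 and 102, of CS at 124, of LDHA at 102 and of OGDH at 95. Each name in the MACS2 list carries the text 300bp, for which the labels give no explanation, and the part of such a length in these distances was not tested. The strongest summit of a gene lay within the range of that gene's highest-fold peak in 11 of 19 members (57.9%, against 33.4%), and inside one of its blocks in 4 (21.1%, against 18.54%): PKM, TPI1, TKT and IDH3B.

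**Figure D5:**
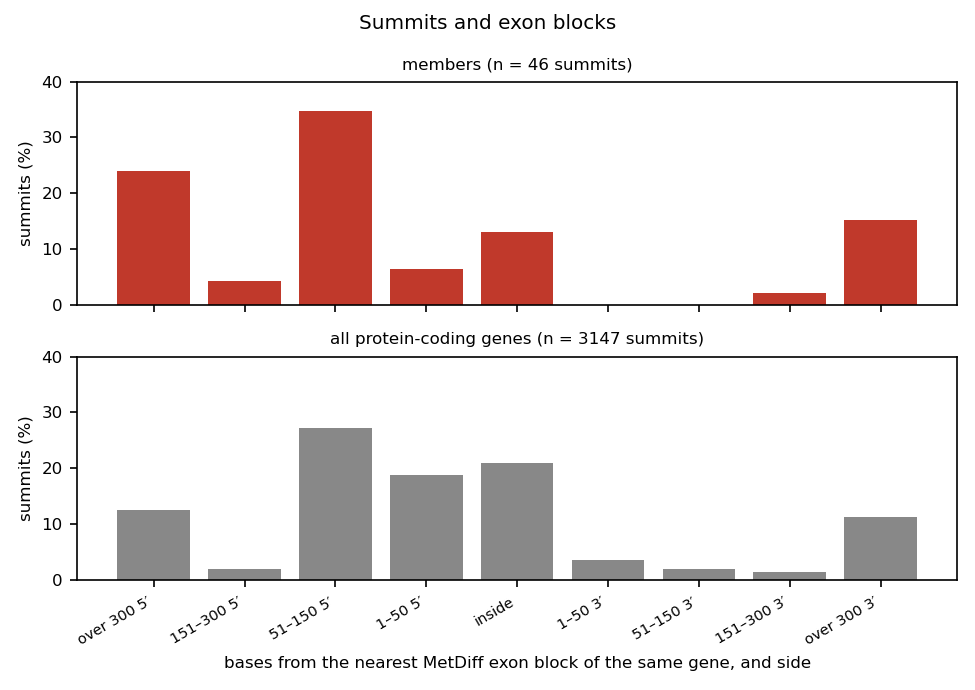
Share of summits (%) by distance in bases and side from the nearest MetDiff exon block of the same gene, for 46 summits of the members (top) and 3147 of all protein-coding genes (bottom); 5′ and 3′ follow the strand of the peak. Within 150 bases the members' summits outside a block all lie on the 5′ side.

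Other genes of these pathways had shares nearer those of all protein-coding genes. Of 72 such genes (isoenzymes, transporters, regulators and neighbouring enzymes), 20 had a MetDiff peak (27.8%), 9 a summit (12.5%) and 8 both (11.1%). PGAM2, the muscle mutase, had the highest fold, 21.4 (chromosome 7) from 1 peak, while PGAM1 had none. Sites of these genes were counted on either strand. D2HGDH, which oxidises D-2-hydroxyglutarate, had 12, the lactate exporter SLC16A3 10.1 and H6PD, which runs the oxidative pentose steps in the endoplasmic reticulum, 9.92. By summit, BSG, the chaperone of lactate transporters, led with 40.1; values were also high for D2HGDH (32.7), SLC16A3 (32.4) and PRPS1 (17.5), which uses ribose 5-phosphate. The glucose transporter SLC2A1 had a single peak of fold 1.88.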

How the data were processed

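The 12 libraries form 4 groups of 3. STAR 2.7.1, MACS2 2.2.5 and bedtools are among the tools named, with GRCh38, per the submitters' processing notes; the sources used here do not say which libraries entered each list, whether they were pooled, or with which settings. The MetDiff list as deposited by the authors gives for each peak a p-value, an FDR as log10 and a fold (ratio), with strand and exon blocks. The MACS2 list as deposited gives a −log10 q-value per summit. Neither has a header, and units were read from the values (the highest log10 FDR was −1.30, the lowest −log10 q 1.35).

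With Python 3.11.15 and pandas 2.3.3, sites wholly inside a RefSeq span were assigned to that gene, on either strand, and counted for 20050 protein-coding genes. No test was run, since no value belongs to a library. The assignment was tested on simulated intervals. Members in either list were named with values, the rest by name; of 72 other pathway genes the 5 highest by fold and by −log10 q were to be named, of which some are not reported here, with SLC2A1 added after its value was seen. The members and lists were chosen with earlier results of these data known. Alternatives covered gene assignment, thresholds, strand and overlap.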

Additional observations from a re-analysis of the deposited data

How the results depend on the processing

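Counts and medians moved little. Of 65 values under alternatives, covering 13 results, 63 lay within 1.5 times the reported value. The exceptions are summits shared with MetDiff peaks: 6 inside an exon block became 19 when the whole peak range counted and 25 within 150 bases of a block. Members with a MetDiff peak numbered between 23 and 25: ALDOA was lost when a site had to lie in exactly 1 gene span, PC at an FDR under 0.001, PGK1 at a fold of at least 2, and IDH1 was gained with any overlap. Summits of at least 10 in −log10 q left out HK1, DLST and PC. Counting peaks on the gene's strand alone, a setting added after the data were seen, gave a median highest fold of 5.26 and lost no member. No paired analysis was possible because neither list holds values of single libraries; for the same reason no replicate could be left out. The depth is unknown.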

Other observations

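Several of these enzymes have many pseudogene copies, which can share reads with the parent gene. RefSeq lists 131 pseudogenes named after 22 of the 44 members, 65 of them after GAPDH and 13 after PGAM1. Among the 131, 1 held MetDiff peaks and 2 held a summit, against 60 and 52 of all 17051 pseudogenes. LDHAP4 on chromosome 9 had peaks with folds of 7.60 (14921760 to 14921859) and 8.16 (14921786 to 14921885), overlapping each other under different Ensembl IDs, and a summit of 8.68. Both folds exceed the 2.48 of LDHA itself. TPI1P1 on chromosome 1 had a summit of 36.1 (position 76700008) and no MetDiff peak. No pseudogene of GAPDH, PGAM1, PKM or ENO1 held either kind of site. The sources used here do not say how reads of near-identical copies were assigned, so the gene behind the LDHAP4 and TPI1P1 sites is uncertain.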
